A study of Mus musculus with 4 samples.

Results

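The genes described here are 44 genes of G2 phase and mitosis, read from the 55426 rows of a gene-level FPKM table of mouse retinal organoids. They were chosen by gene symbol as mitotic cyclins and kinases and as spindle and kinetochore genes, with earlier results of these data known. Each of the 44 symbols matched 1 row, and all 44 passed the filter on low values (a mean of at least 1 FPKM, fragment numbers normalised for library size and transcript length), as did 13931 rows in all.

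In retinal organoids, pluripotent stem cells are grown as aggregates and steered in culture towards retinal progenitors. Poly(A) RNA was sequenced at day 6 from a single line, which carries a knockout of Mettl3, the reporter Rx:GFP and an HA-METTL3 construct under doxycycline control. The METTL3 enzyme places N6-methyladenosine on messenger RNA, and doxycycline (Dox) is the drug that switches such a construct on. Of the 4 libraries, 2 came from untreated organoids and 2 from organoids given Dox at 2 µg/ml for 6 days. Both groups share the knockout, the construct, the reporter, the day of collection, GMEM medium with KSR, NEAA, sodium pyruvate and β-ME as supplements, and AGN at 0.1 µM. The titles of the samples hold the term EV, which is not explained, and the labels do not say whether the line is 1 clone or whether the 2 libraries of a group came from separate cultures. The p-values therefore measure the spread between these libraries, which may be technical.

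The labels were checked against named genes before the mitotic genes were compared. Mettl3 read 40.3 and 38.0 FPKM without Dox and 45.2 and 46.4 FPKM with it (log2 fold change 0.22, SE 0.068, adjusted p = 0.122 in limma). Its row gives no separate value for the inducible copy, and its exons overlap Tox4 on the opposite strand. The eye-field gene Rax stood at 1.12 and 0.82 FPKM without Dox and at 201.1 and 228.0 FPKM with it, and the retinal progenitor gene Six6 read 0.01 FPKM in each untreated library, so these defining retinal markers were at or near 0 in the untreated organoids. The depth recovered from the low values was 31700000 to 34900000 fragments per library. If each gene's longest annotated transcript is taken, the members rest on about 1420 fragments per library (Cdc25c, a counting error of 2.65%) to about 32370 (Cdk1). Shorter transcripts would mean fewer fragments and a larger counting error.

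Cells pass from G2 into mitosis when CDK1, bound to cyclin B, is freed of its inhibitory phosphates by CDC25 phosphatases. Polo-like and Aurora kinases then build the spindle, kinetochores attach chromosomes to it, and a checkpoint holds back the anaphase-promoting complex until every chromosome is attached. Many of the genes involved are transcribed in one wave late in the cycle, driven by the MuvB complex with B-Myb and FOXM1 and by NF-Y at CCAAT boxes. In the early eye, progenitors divide in the neuroepithelium, while neurons have left the cycle and lack this set of transcripts.

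The 44 genes stood at nearly the same level with and without Dox. None of them passed the threshold between Dox and untreated libraries (0 higher and 0 lower at an adjusted p under 0.05 in limma), against 9.31% of all tested genes (4.44% higher and 4.87% lower). At an unadjusted p under 0.05 in limma, 7 members were lower and 0 higher, where 11.9% of all tested genes were lower and 12% higher. That count of 7 was 0 without untreated replicate 1, 2 without untreated replicate 2, 4 without Dox replicate 1 and 3 without Dox replicate 2. It was 2 with TPM, 4 without the trend, 3 with the replicate number as a block and 12 with GC and length trends removed. The smallest adjusted p of a member was 0.0742, for Cenpf. A p that misses the threshold does not show equal levels, so the intervals matter here: the 95% interval of every one of the 44 members lay inside a 2-fold change in either direction, which held for 91.2% of all tested genes. For 43 of the 44 it lay inside a 1.5-fold change, against 74.5% of all tested genes, Kif23 being the exception. The lowest bound of any member was -0.65 (Kif23) and the highest 0.35 (Anln) on the log2 scale. With GC and length trends removed from every library, 2 members passed as lower, Cdc25b (adjusted p = 0.0348 in limma) and Cenpf (adjusted p = 0.0482 in limma), where 6.71% of the tested genes passed as lower. In a fit without Dox replicate 1, in which the lone Dox library is assumed to vary like the untreated ones, Kif23 passed as lower (log2 fold change -0.52, adjusted p = 0.0461 in limma), where 2.41% of the tested genes passed as lower.

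**Figure D1:**
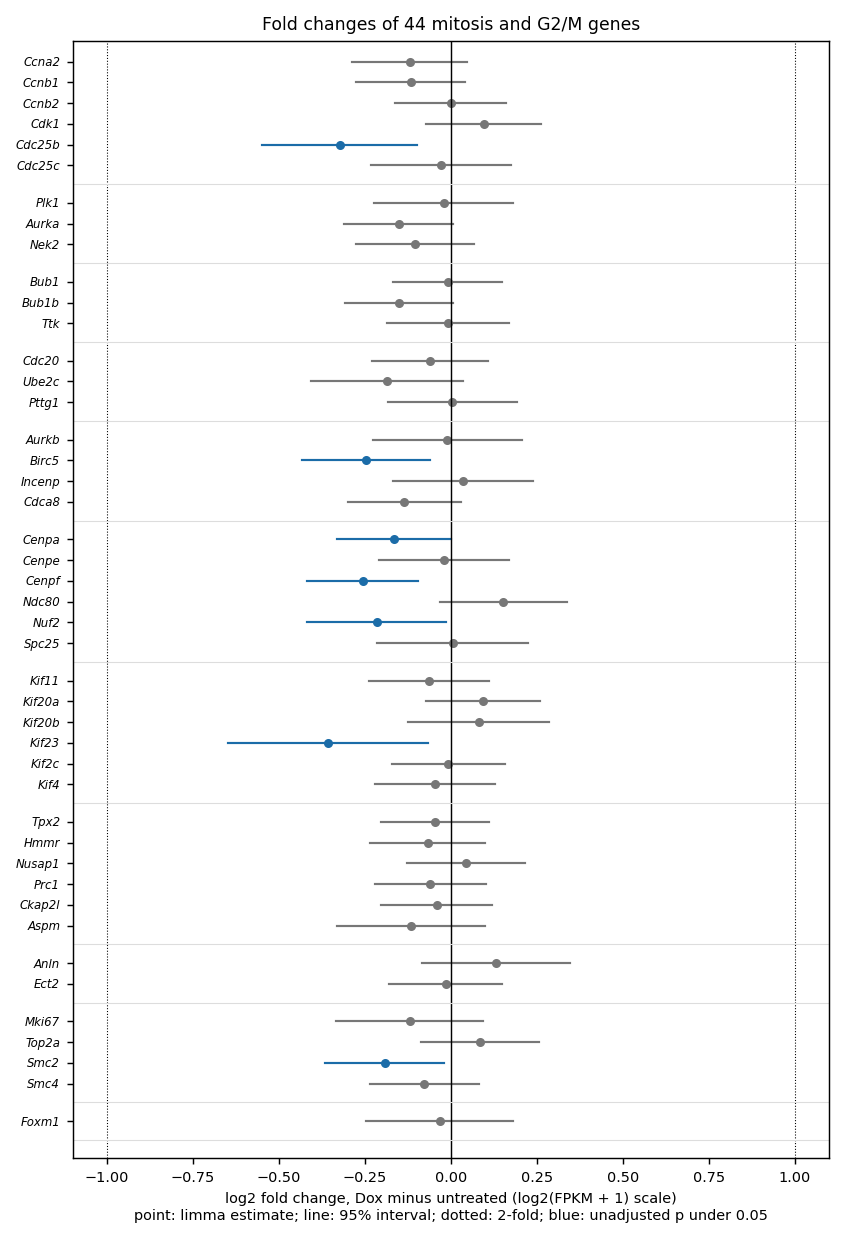
Fold change of each of the 44 mitosis and G2/M genes between Dox and untreated libraries on the log2(FPKM + 1) scale (x axis), grouped by role (y axis), with points for the limma estimate, lines for the 95% interval and dotted lines at a 2-fold change. All 44 intervals lie between the dotted lines, and the 7 in blue, all on the lower side, exclude 0 without adjustment.

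Most differences were small and lay on the lower side. Over the 44 members the median log2 fold change was -0.046, with quartiles of -0.12 and -0.0063, while the median over all tested genes was -0.0042. The absolute log2 difference between the groups had a median of 0.079 over the members and 0.13 over all tested genes. The difference between replicates had a median of 0.060 (untreated) and 0.055 (Dox) over the members, and of 0.10 and 0.12 over all tested genes. In 22 of the 44 members (50%) the groups differed by more than either replicate pair did, as in 42.6% of all tested genes. In 23 members both Dox libraries lay below both untreated libraries, a position held by 26.9% of all tested genes. In 7 members both lay above, against 26.5% of all tested genes, and in 14 the groups overlapped. These positions depended on the scaling: with values rescaled to a common sum per library (TPM), 11 of the 44 (25%) lay below and 4 (9.09%) above, against 21.9% and 25.3% of all tested genes, and the fold changes of 8 members changed sign. With median centring or quantile normalization 22 lay below and 5 above, against 26.9% of all tested genes below in both and 26.9% and 27.8% above. With GC and length trends removed 28 lay below and 4 above, against 30.7% and 29.3%. With TPM the median over all tested genes was 0.016. Of the 23 lower members 12 overlapped with TPM: Ccnb1, Nek2, Ube2c, Cdca8, Kif11, Kif4, Tpx2, Hmmr, Prc1, Ckap2l, Aspm and Mki67. Of the 7 higher members 3 did: Kif20a, Kif20b and Nusap1.

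**Figure D2:**
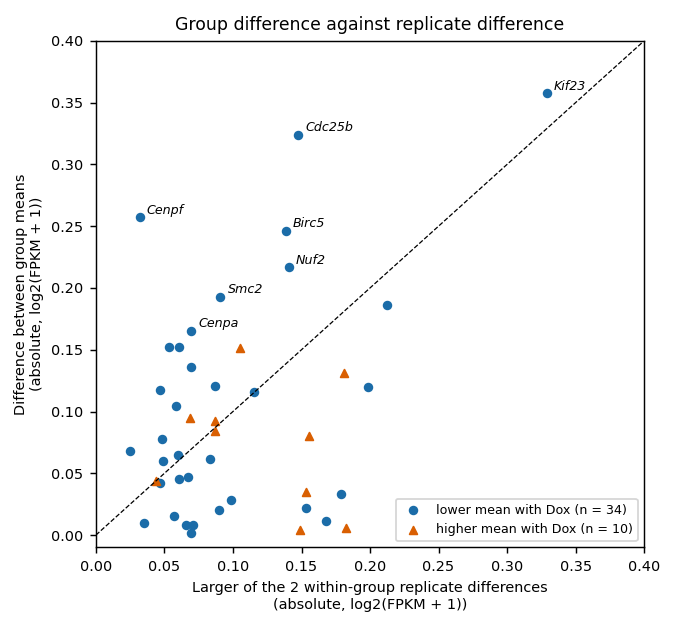
Absolute difference between the group means of each of the 44 members (y axis) against the larger of its 2 replicate differences (x axis), both on the log2(FPKM + 1) scale, with circles for a lower and triangles for a higher mean with Dox and a dashed line where both are equal. The 22 members above the line differ between groups by more than between replicates, as 42.6% of all tested genes do, and the named ones are the 7 with an unadjusted p under 0.05 in limma.

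The members were also compared in a feature that expression did not enter, the sequence at their start sites. RefSeq promoter windows of GRCm38.p6, 300 bases long with 250 before and 50 after the start, were matched to 36 of the 44 symbols. The search took the core of the CHR element, which the MuvB complex binds (TTTGAA or TTCGAA), and the NF-Y box CCAAT, each on both strands. The CHR core was found at 29 of the 36 members (80.6%), against 19.2% of all 32851 windows. CCAAT was found at 28 (77.8%, against 37.4%), and both at 25 (69.4%, against 7.52%). A member counted if any of its windows matched, whereas the shares of all windows are per window. Per window, the members held the CHR core in 31, CCAAT in 30 and both in 27 of 38. Birc5, Nuf2, Nusap1 and Pttg1 had neither in this window. A match is a description of letters, not a site in use.

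Stretches before the start of 5 regulators whose levels are given next are shown for these motifs, each 5′ to 3′ on the gene's own strand, with every CHR core and CCAAT box (or its reverse complement) in capitals. Each holds the 100 bases before the RefSeq start. For Aurka and Plk1, whose CHR core begins at bases 33 and 31 counted from that start, bases 21 to 50 follow. The outermost starts in the GENCODE M21 annotation differ, at chr2:172370535 for Aurka, chr13:100786570 for Ccnb1 and chr10:69352938 for Cdk1. They are at chr4:118437352 for Cdc20 and chr7:122159439 for Plk1. By those starts the Aurka core begins before the transcript, and parts of the Ccnb1, Cdc20 and Cdk1 stretches lie within it. Those parts hold most of the Ccnb1 stretch, the later Cdk1 core and the later Cdc20 CCAAT box. Counted from the RefSeq start, the CHR core begins 15 and 71 bases before it in Cdk1, and 18 bases before it in Cdc20. Ccnb1 shows a pair of CCAAT boxes and no CHR core.
Cdk1 (chr10:69352913-69353012, minus strand): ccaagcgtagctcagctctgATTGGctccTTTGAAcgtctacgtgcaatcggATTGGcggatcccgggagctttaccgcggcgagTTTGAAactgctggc
Ccnb1 (chr13:100786487-100786586, minus strand): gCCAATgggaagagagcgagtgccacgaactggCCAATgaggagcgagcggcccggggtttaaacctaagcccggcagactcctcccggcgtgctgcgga
Cdc20 (chr4:118437344-118437443, minus strand): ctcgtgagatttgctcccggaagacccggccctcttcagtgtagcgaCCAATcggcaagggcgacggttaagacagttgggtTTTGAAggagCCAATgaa
Aurka (chr2:172370571-172370670, minus strand): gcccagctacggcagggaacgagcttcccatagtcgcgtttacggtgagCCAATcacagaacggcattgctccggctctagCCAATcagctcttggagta
Aurka, bases 21 to 50 (chr2:172370521-172370550, minus strand): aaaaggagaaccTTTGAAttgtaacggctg
Plk1 (chr7:122159335-122159434, plus strand): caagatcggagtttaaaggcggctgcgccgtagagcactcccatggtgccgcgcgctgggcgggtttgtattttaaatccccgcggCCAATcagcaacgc
Plk1, bases 21 to 50 (chr7:122159455-122159484, plus strand): cagcgccgcgTTTGAAttcggggaggagcg

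The engine of mitotic entry was among the most abundant of the set. Cdk1 (ENSMUSG00000019942), the kinase that drives cells into mitosis, had the highest level of the 44, at 217.1 and 217.5 FPKM untreated and 237.7 and 226.6 FPKM with Dox. Both Dox libraries lay above both untreated ones, with a log2 fold change of 0.095 (SE 0.067, 95% interval -0.073 to 0.26, adjusted p = 0.461 in limma). Its partner cyclin B1 went the other way in position: Ccnb1 stood at 164.7 and 159.4 FPKM untreated and at 150.5 and 148.0 FPKM with Dox. With TPM scaling the Ccnb1 groups overlapped, while Cdk1 stayed higher with Dox. The log2 fold change of Ccnb1 was -0.12 (SE 0.064, 95% interval -0.28 to 0.041, adjusted p = 0.339 in limma). The second B-type cyclin, Ccnb2, had overlapping groups, at 72.3 and 68.9 FPKM untreated and 71.0 and 70.0 FPKM with Dox. Cyclin A2, which acts from S phase to early mitosis, read 69.5 and 73.9 FPKM without Dox and 66.7 and 64.9 FPKM with it (Ccna2, log2 fold change -0.12).

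The CDC25 phosphatases, which activate CDK1, were the lowest of this group. Cdc25b stood at 18 and 16.9 FPKM untreated and at 13.0 and 14.5 FPKM with Dox. The Dox libraries were the lower ones, with a ratio of means of 0.788, and the log2 fold change was -0.32 (SE 0.090, 95% interval -0.55 to -0.098, adjusted p = 0.0963 in limma). Cdc25c, at 17 and 16.2 FPKM untreated and 16.8 and 15.7 FPKM with Dox, had overlapping groups and a log2 fold change of -0.028. Exons of Cdc25b, Cdc25c and Ccna2 are among those of 13 members that overlap a gene on the opposite strand, and whether counting used strand is not given in the sources used here. Exons of Foxm1 and Top2a overlap another gene on the same strand, and Ccnb1, Ccnb2 and Kif4 have a copy named as a pseudogene.

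**Figure D3:**
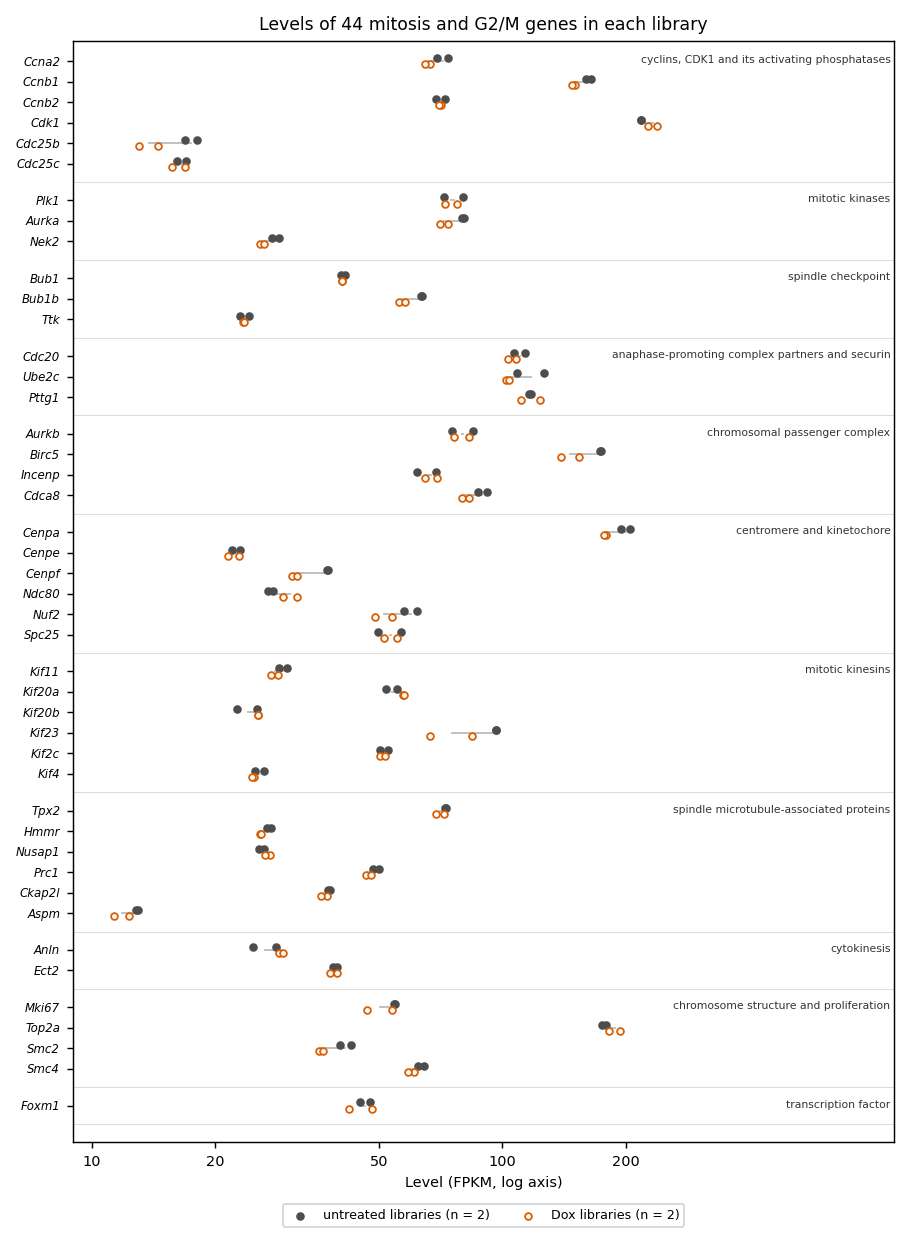
Level of each of the 44 genes in each library (x axis, FPKM on a log axis), grouped by role (y axis), with filled points for the 2 untreated and open points for the 2 Dox libraries and a grey line between the group means. The levels run from 11.3 FPKM (Aspm) to 237.7 FPKM (Cdk1), and the points of a gene lie close together beside that range.

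Kinases that act on the spindle and centrosome differed little. Plk1, the polo-like kinase of spindle assembly and mitotic exit, stood at 80.2 and 72.0 FPKM untreated and at 72.5 and 77.3 FPKM with Dox, and the groups overlapped (log2 fold change -0.022, SE 0.081, 95% interval -0.22 to 0.18, adjusted p = 0.901 in limma). Aurka, the centrosomal Aurora kinase, stood at 79.8 and 80.9 FPKM untreated and at 73.7 and 70.7 FPKM with Dox. Both Dox libraries of Aurka were lower, with a log2 fold change of -0.15 (SE 0.063, 95% interval -0.31 to 0.0054, adjusted p = 0.222 in limma). Nek2, which splits the centrosomes, read 28.6 and 27.4 FPKM untreated and 25.8 and 26.2 FPKM with Dox (log2 fold change -0.10).

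Genes of the spindle checkpoint and of the anaphase-promoting complex gave no call either. Bub1 and Ttk, checkpoint kinases at the kinetochore, had overlapping groups and log2 fold changes of -0.010 and -0.0081. Bub1b, which holds the complex back, stood at 63.6 and 63.3 FPKM untreated and at 55.9 and 58.1 FPKM with Dox (log2 fold change -0.15, adjusted p = 0.220 in limma). Cdc20, the activator that the checkpoint restrains, stood at 113.4 and 106.9 FPKM untreated and at 103.2 and 107.8 FPKM with Dox. Ube2c, the ubiquitin-conjugating enzyme of the complex, had the lower Dox libraries, at 101.9 and 103.7 FPKM beside 126.1 and 108.7 FPKM untreated, a log2 fold change of -0.19. Pttg1, the securin that is destroyed at anaphase, stood at 117.3 and 116.3 FPKM untreated and 123.4 and 111.2 FPKM with Dox, with a log2 fold change of 0.0041. In 2 of these 6 genes, Bub1b and Ube2c, both Dox libraries lay below the untreated ones, a position held by 26.9% of all tested genes. In the other 4 genes the groups overlapped, and with TPM scaling those of Ube2c did too.

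The 4 genes of the chromosomal passenger complex, which corrects faulty attachments and later guides cytokinesis, did not differ alike. Birc5 (survivin), its targeting subunit, stood at 173.8 and 173.2 FPKM untreated and at 153.4 and 139.2 FPKM with Dox, so that both Dox libraries were lower (log2 fold change -0.25, SE 0.074, 95% interval -0.43 to -0.060, adjusted p = 0.117 in limma). Cdca8 (borealin), which binds survivin, read 91.5 and 87.2 FPKM untreated and 79.8 and 82.7 FPKM with Dox (log2 fold change -0.14). The kinase of the complex, Aurkb, and its scaffold, Incenp, had overlapping groups, with log2 fold changes of -0.011 and 0.035. Differences between members were not tested.

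The 6 centromere and kinetochore genes held 3 of the 7 members with an unadjusted p under 0.05 in limma, and also the largest positive fold change. Of all tested genes 11.9% were lower at that threshold, and the difference in share was not tested. Cenpf, a large kinetochore and nuclear matrix protein of G2, stood at 37.4 and 37.6 FPKM untreated and at 30.8 and 31.5 FPKM with Dox. Its groups were 0.26 apart on the log2 scale with a replicate difference of at most 0.032 (log2 fold change -0.26, SE 0.065, 95% interval -0.42 to -0.096). Cenpa, the histone H3 variant that marks centromeres, was the second most abundant member, at 204.5 and 194.8 FPKM untreated and 178.6 and 177.2 FPKM with Dox (log2 fold change -0.17, SE 0.066, 95% interval -0.33 to -1.4e-04, adjusted p = 0.208 in limma).

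Subunits of the NDC80 complex, the kinetochore's microtubule grip, lay on both sides of 0. Nuf2 stood at 57.7 and 62.1 FPKM untreated and at 54.0 and 48.9 FPKM with Dox (log2 fold change -0.22, SE 0.081, 95% interval -0.42 to -0.015, adjusted p = 0.183 in limma). Its partner Ndc80 stood at 26.9 and 27.6 FPKM untreated and at 31.6 and 29.3 FPKM with Dox, with both Dox libraries higher and a log2 fold change of 0.15 (95% interval -0.032 to 0.34, adjusted p = 0.288 in limma). Spc25, of the same complex, read 49.9 and 56.7 FPKM untreated and 55.4 and 51.5 FPKM with Dox, overlapping groups with a log2 fold change of 0.0054. The kinetochore motor gene Cenpe overlapped as well (log2 fold change -0.020).

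Among the kinesin motors Kif23 stood apart in size and in spread. Kif23, the central spindle motor that cytokinesis needs, stood at 96.5 and 96.2 FPKM untreated and at 84.2 and 66.8 FPKM with Dox. Both Dox libraries were lower, but they differed from each other by 0.33 on the log2 scale, nearly as much as the groups did (log2 fold change -0.36, SE 0.12, 95% interval -0.65 to -0.067, adjusted p = 0.137 in limma). It had the largest fold change of the 44, with a ratio of means of 0.783, but not in every fit: without Dox replicate 2 its log2 fold change was -0.19 (adjusted p = 0.269 in limma) and that of Cdc25b was -0.40, and without untreated replicate 2 they were -0.36 and -0.37. The other 5 kinesin genes had log2 fold changes between -0.065 and 0.092. Kif11, which pushes the spindle poles apart, read 28.6 and 29.9 FPKM untreated and 27.4 and 28.5 FPKM with Dox. Both Dox libraries were above the untreated ones for Kif20a (55.5 and 52.2 against 57.2 and 57.6 FPKM) and for Kif20b (22.6 and 25.3 against 25.4 and 25.4 FPKM), motors of the central spindle and of cytokinesis. That position was held by 26.5% of all tested genes, and with TPM scaling the groups of Kif20a and Kif20b overlapped. Kif2c, which depolymerizes microtubules at centromeres, overlapped. Kif4, the chromokinesin, had the lower Dox libraries by a log2 fold change of -0.047, but overlapped with TPM scaling.

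The 6 spindle microtubule-associated genes had log2 fold changes between -0.12 and 0.044. In 5 of them both Dox libraries were lower: Tpx2, the activator of Aurora A (-0.046), Hmmr (-0.068), Prc1, the bundler of the central spindle (-0.060), Ckap2l (-0.042) and Aspm, a spindle pole gene known from microcephaly (-0.12). In Nusap1 both were higher (0.044). None of these 6 positions was seen with TPM scaling, where all 6 groups overlapped. In the deposited FPKM, 26.9% of all tested genes had both Dox libraries lower and 26.5% had both higher. Aspm had the lowest level of the 44 genes, at 12.8 and 13.0 FPKM untreated and 11.3 and 12.4 FPKM with Dox. Of the cytokinesis genes, Anln, which organizes the contractile ring, read 24.7 and 28.1 FPKM untreated and 28.7 and 29.3 FPKM with Dox (log2 fold change 0.13), and Ect2, the exchange factor that activates RhoA there, overlapped (-0.015).

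The usual markers of dividing cells gave no call. Mki67, the Ki-67 antigen, stood at 54.8 and 54.3 FPKM untreated and at 46.7 and 53.8 FPKM with Dox (log2 fold change -0.12, SE 0.086, 95% interval -0.33 to 0.094, adjusted p = 0.464 in limma). Of the 2 Dox libraries, replicate 2 lay close to the untreated ones and replicate 1 lay further below. Top2a, the topoisomerase that untangles sister chromatids, stood at 179.2 and 174.7 FPKM untreated and at 193.4 and 182.1 FPKM with Dox (log2 fold change 0.084, SE 0.069, 95% interval -0.087 to 0.26, adjusted p = 0.523 in limma).

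The condensin ATPases Smc2 and Smc4, which compact mitotic chromosomes, both had the lower Dox libraries. Smc2 read 40.1 and 42.8 FPKM untreated and 35.8 and 36.6 FPKM with Dox (log2 fold change -0.19, SE 0.069, 95% interval -0.37 to -0.020, adjusted p = 0.170 in limma), and Smc4 had a log2 fold change of -0.078. Foxm1, the transcription factor of the late wave, stood at 47.6 and 45.0 FPKM untreated and at 42.4 and 48.1 FPKM with Dox. The 2 Dox libraries of Foxm1 enclosed the untreated ones (log2 fold change -0.034, SE 0.085, 95% interval -0.25 to 0.18, adjusted p = 0.855 in limma).

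Other genes of the cell cycle, from lists outside the 44, gave few calls too. Of 31 further checkpoint and kinetochore genes 1 fell and 0 rose, with a median log2 fold change of -0.075. The one that fell was Cenpw, a centromere histone-fold gene, at 33.8 and 37.2 FPKM untreated and 21.2 and 16.8 FPKM with Dox (log2 fold change -0.88, SE 0.12, adjusted p = 0.0116 in limma). Of 32 further spindle, kinesin and cytokinesis genes 1 fell and 0 rose, with a median of -0.11. In this list 28 fold changes were negative, as were 7083 over all 13931 tested genes. Its called gene was Ckap2, a spindle protein gene, at 87.4 and 89.0 FPKM untreated and 69.1 and 66.2 FPKM with Dox (log2 fold change -0.38, SE 0.063, adjusted p = 0.0210 in limma). The shares called were 3.23% and 3.12%, below the 9.31% of all tested genes, and the difference in share was not tested. At an unadjusted p under 0.05 in limma, 3 of the 31 genes were lower and 1 higher. Of the 32 genes 7 were lower and 0 higher, against 11.9% lower and 12% higher of all tested genes.

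Neither the 6 non-SMC condensin subunits (median -0.10) nor the 16 core genes of the anaphase-promoting complex (median -0.020) held a call. The same count of 0 was found in the 14 genes of MuvB, DREAM, B-Myb and NF-Y (median 0.092) and in 26 genes of DNA replication and S phase (median -0.045). These medians moved when 1 library was left out: without Dox replicate 2 the MuvB list had 0.0092 and the S phase list 0.012, and without untreated replicate 1 the anaphase-promoting complex list had 0.033. At an unadjusted p under 0.05 in limma these lists held 0, 2, 1 and 3 lower genes and 0, 0, 1 and 0 higher ones. Of all tested genes 11.9% were lower and 12% higher at that threshold. Mybl2, which encodes B-Myb, read 35.6 and 32.1 FPKM untreated and 29.7 and 29.7 FPKM with Dox (log2 fold change -0.18, adjusted p = 0.240 in limma), and is named as the partner of MuvB after its value was seen. Pcna, the replication clamp and the most abundant of the S phase genes, overlapped between groups (log2 fold change -0.062).

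The list of CDK inhibitors and G2 checkpoint genes was the cell cycle list with most calls, 1 higher and 2 lower of 10. The share called was 30%, against 9.31% of all tested genes, and the difference in share was not tested. Cdkn1a, the p21 inhibitor and a p53 target, fell from 56.0 and 49.0 FPKM to 26.9 and 27.8 FPKM (log2 fold change -0.91, adjusted p = 0.00269 in limma). Cdkn1c, the p57 inhibitor of cells that leave the cycle, rose from 16.9 and 15.6 FPKM to 29.4 and 32.5 FPKM (log2 fold change 0.89, adjusted p = 0.00304 in limma). Gadd45g, which is also counted among the neurogenic markers, fell from 15.6 and 13.7 FPKM to 2.34 and 2.52 FPKM (log2 fold change -2.19, adjusted p = 3.2e-04 in limma). Wee1, the kinase that places the inhibitory phosphate on CDK1, overlapped between groups, at 19.4 and 18.2 FPKM untreated and 19.3 and 20.3 FPKM with Dox.

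**Figure D4:**
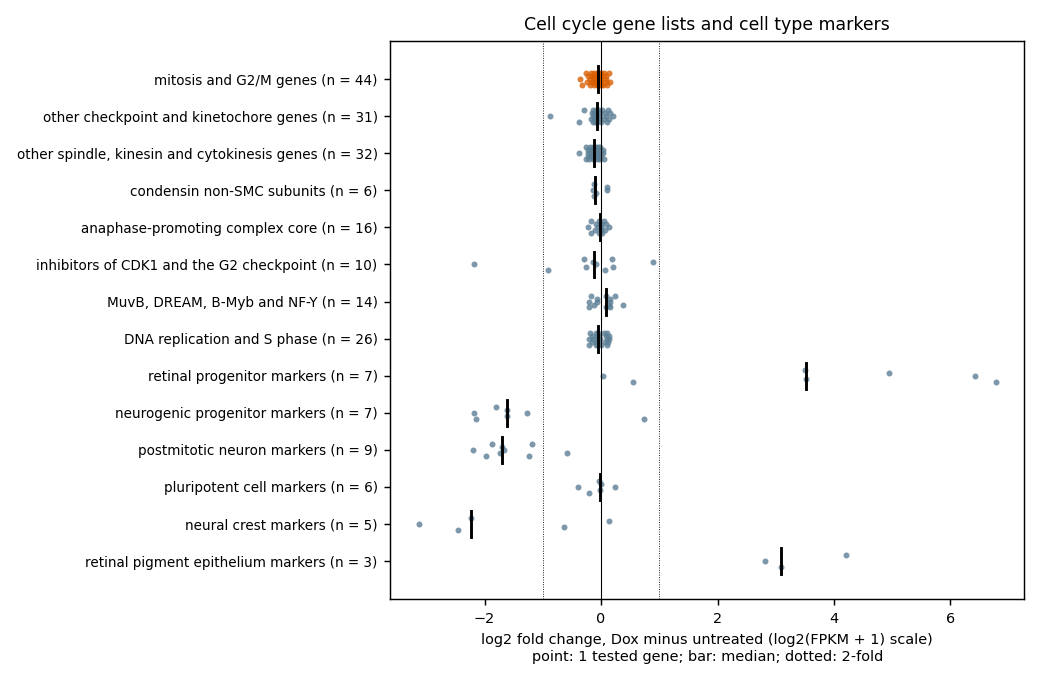
Fold changes on the log2(FPKM + 1) scale (x axis) of the 44 mitosis and G2/M genes, of other cell cycle lists and of cell type markers (y axis), with 1 point per tested gene, a bar at the median and dotted lines at a 2-fold change. All cell cycle genes apart from Gadd45g lie inside the dotted lines, whereas most retinal, neuronal, neural crest and pigment markers lie outside.

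Markers of the cell types in these organoids differed by far more than the mitotic genes did. All 9 tested postmitotic neuron markers of a list of 12 fell, with a median log2 fold change of -1.70, and the summed level of the 12 was 204.2 to 204.5 FPKM untreated and 95.3 to 97.0 FPKM with Dox. Of 7 neurogenic progenitor markers 6 fell and 1 rose (summed level 56.1 to 59.7 and 18.8 to 22.3 FPKM). Of 7 retinal progenitor markers 6 rose and 0 fell (248.4 to 272.9 and 929.5 to 1082 FPKM).

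Markers of cells beside the retinal lineage moved as well. Of 5 neural crest markers 4 fell, and the summed level was 36.4 to 36.8 FPKM untreated and 9.29 to 9.65 FPKM with Dox, with Sox10 at 12.8 and 13.3 FPKM untreated and 0.82 and 0.43 FPKM with Dox. The 3 tested of 6 pigment epithelium markers rose (2.33 to 2.48 and 61.2 to 61.9 FPKM). Of the 6 pluripotency markers 0 passed, with 1 lower and 0 higher at an unadjusted p under 0.05 in limma (66.5 to 70.1 and 50.5 to 74.5 FPKM), and none of the 7 mesoderm and endoderm markers exceeded 0.77 FPKM. The summed level of the 44 mitotic genes was 2948 to 3003 FPKM untreated and 2818 to 2855 FPKM with Dox, 0.342% to 0.366% and 0.330% to 0.355% of all FPKM. In bulk RNA, fewer cells of a type and less RNA per cell cannot be told apart, and the part of these cell types in the levels of the mitotic genes was not tested.

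**Figure D5:**
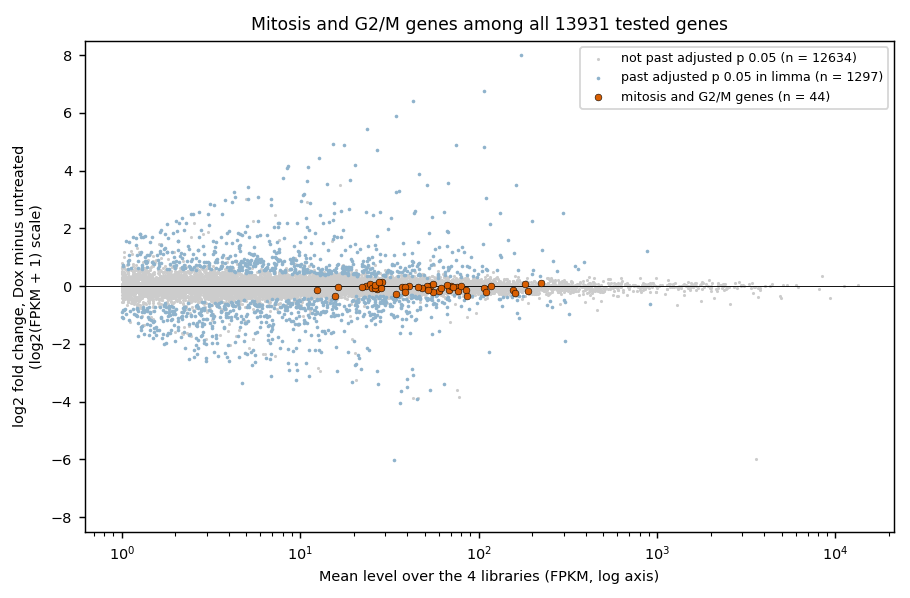
Fold change on the log2(FPKM + 1) scale (y axis) against the mean level over the 4 libraries (x axis, FPKM on a log axis) for all tested genes, with the 1297 genes past an adjusted p of 0.05 in limma in blue and the 44 mitosis and G2/M genes in orange. The members lie in a band between -0.36 and 0.15 at mean levels that put 8 of them among the top 10% of tested genes.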

How the data were processed

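The authors deposited a table of FPKM values, 1 column per library and rounded to 2 decimals. The submitters' processing notes list STAR, Cuffdiff and the build mm10 without roles. The annotation release, the strand setting and filters are not given in the sources used here. FPKM is no count, so no count model was used. From the deposited FPKM, log2(FPKM + 1) was fitted for rows averaging 1 FPKM or more with limma 3.58.1 in R 4.3.3 (lmFit, eBayes with an intensity trend, 4 libraries, no covariate, two-sided, Benjamini-Hochberg over all tested genes, threshold 0.05). Fold changes on this scale understate those of low genes. With 2 libraries against 2, no two-sided exact permutation p can fall below 0.333, so p-values rest on variance shared across genes.

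The members, roles and lists were chosen with earlier results of these data known. The text gives all members. Of other lists it names up to 4 called genes, and of the S phase list, which held no call, the most abundant gene. Some lists have no gene named, among them the condensin and anaphase-promoting complex lists. Exceptions were named after their values were seen. Among them are the 7 members with an unadjusted p under 0.05 in limma given with full statistics, and Wee1 and Mybl2 from the other lists. The retinal progenitor markers given for the untreated libraries are exceptions too. Annotation came from GENCODE M21 (GRCm38). Depth was fitted from low values of single-transcript genes of 450 to 1200 nt, of which 87.2% to 88.1% were whole fragments within 0.15, against 30% by chance. The main fit was also run on values simulated from its own variances, which cannot show how it does on real libraries. In addition, 16 alternatives were run.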

Additional observations from a re-analysis of the deposited data

How the results depend on the processing

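The 44 members gave 0 calls in 14 of the 16 alternative fits. The exceptions were removal of GC and length trends (2 lower, Cdc25b and Cenpf) and the fit without Dox replicate 1 (1 lower, Kif23), so over the fits without 1 library the members called lower ranged from 0 to 1. All 44 intervals stayed inside a 2-fold change in all 16 fits. The median log2 fold change of the members was -0.025 with TPM and ranged from -0.072 to -0.044 when 1 library was left out. Of the members named with full statistics, Plk1 and Foxm1 changed sign. Plk1 was positive with TPM (4.1e-04), when untreated replicate 1 was left out (0.055) and when Dox replicate 1 was (0.024), in a range of -0.098 to 0.055. Foxm1 was positive in the same 2 fits without 1 library (0.0054 and 0.056), in a range of -0.12 to 0.056. The number of all genes called was 336 higher and 409 lower with no filter, and 408 and 413 with a mean of at least 5 FPKM, which test other numbers of genes. It ranged from 262 to 320 higher and from 331 to 377 lower without 1 library, where fewer samples were fitted. Mettl3 did not pass in any of the 16. A replicate block by number gave calls for 1134 genes and 0 members, and with the GC and length trends also removed 1460 genes and 0 members. Nothing in the labels says that the numbers pair libraries (correlation of the replicate differences -0.043 over tested genes, which are not independent). Depth sets a counting error of 2.65% for the member with fewest fragments if its longest annotated transcript is taken, and more if a shorter one is.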
